A study of Mus musculus with 12 samples.

Results

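The genes described here are 10 feedback regulators of the ERK and related MAP kinase pathways: the dual-specificity phosphatases *Dusp1*, *Dusp2*, *Dusp4*, *Dusp5*, *Dusp6*, *Dusp10* and *Dusp14*, the Sprouty genes *Spry1* and *Spry2*, and *Spred1*. They were chosen by symbol from a table of 45777 mouse genes, and all 10 were found, each once, and passed the filter on low counts (23585 genes tested). RNA was sequenced from spleen CD4+ T cells of wild type Balb/c mice aged 7 weeks that had been cultured for 3 days with 0.5 ug/mL anti-CD3, an antibody against the T-cell receptor complex that activates these cells. All 4 groups received anti-CD3: alone, with *Lactobacillus acidophilus*, with FK506 (tacrolimus, an inhibitor of the phosphatase calcineurin), or with the combination of both. Each group had 3 libraries, numbered 1 to 3, and no unstimulated cells were among these samples. The labels give no dose of either agent, and the study's methods name B6 rather than Balb/c mice as the source of the cells. Nothing in the labels says that the libraries came from separate mice or cultures, so the p-values measure the spread between these libraries, which may be technical.

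When the T-cell receptor is engaged, Ras activates a cascade of kinases that ends in ERK, and parallel cascades end in JNK and p38. The signal is limited by its own products. Dual-specificity phosphatases remove the activating phosphates from MAP kinases, whereas Sprouty and Spred proteins act further up and restrain Ras and Raf. Many of these genes are switched on quickly by ERK itself, and their transcripts are often used as a reading of recent pathway activity.

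Total counts per library ranged from 45416397 to 64658165, and the libraries numbered 1 were the deepest in every group (63113961 to 64658165 counts). *Cd4* and *Cd3e* were high throughout, at 131 to 256 FPKM (fragments scaled to transcript length and library size, the per-length unit used here for levels) for *Cd4* and 136 to 306 FPKM for *Cd3e*. Markers of other cell types were not at the same level in the groups. The summed FPKM of 18 B-cell markers was 128 to 234 with anti-CD3 alone and 105 to 203 with *L. acidophilus*, but 1001 to 1994 with FK506 and 819.9 to 972 with the combination. For 13 myeloid markers the sum ran from 4.76 to 8.19 in anti-CD3 libraries, from 5.12 to 10.2 in *L. acidophilus* libraries, from 18.1 to 36.7 in FK506 libraries and from 83.6 to 101 in combination libraries. Of the 13, *Cd68* was at 2.01 to 3.38 FPKM in anti-CD3 libraries and 25.4 to 27.3 FPKM in combination libraries. *Lyz2* was at 0 to 0.0327 FPKM and 14.5 to 30.8 FPKM in the same groups, and the macrophage gene *Csf1r* at 0 in all 3 anti-CD3 libraries and at 0.705 to 0.921 FPKM in the combination. The neutrophil gene *Ly6g* went the other way, from 0.495 to 1.95 FPKM in anti-CD3 libraries to 0 in all 3 combination libraries. A set of 5 markers of CD8 T cells and NK cells summed to between 3.01 and 5.77 FPKM in anti-CD3 libraries, 4.20 and 7.59 in *L. acidophilus* libraries, 7.55 and 15.5 in FK506 libraries and 10.5 and 19.3 in combination libraries. Most of this rise was *Eomes*, with means of 0.618, 1.05, 5.72 and 8.46 FPKM in these groups. In the same order, *Cd8b1* was at 3.86, 4.97, 5.07 and 4.25 FPKM and *Cd8a* at 0.215, 0.160, 1.23 and 0.321 FPKM. In FK506 against anti-CD3, 17 of 18 B-cell markers, 9 of 11 tested myeloid markers and 3 of 5 CD8 and NK markers were called higher by edgeR; in the combination against anti-CD3 the counts were 12, 9 and 2. *Ly6g* was the 1 myeloid marker called lower in each of these comparisons, and no B-cell, CD8 or NK marker was. Of 12 T-cell markers, 1 was called higher and 4 lower with FK506 (*Cd2*, *Cd5*, *Lck* and *Zap70*), and 4 higher (among them *Cd4* and *Cd3e*) and 2 lower with the combination. These marker levels therefore moved with the FK506 and combination groups in which several of the 10 genes differed, and their part in the results below was not tested. In bulk RNA, a change in the share of a cell type and a change in transcript per cell cannot be told apart.

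**Figure D1:**
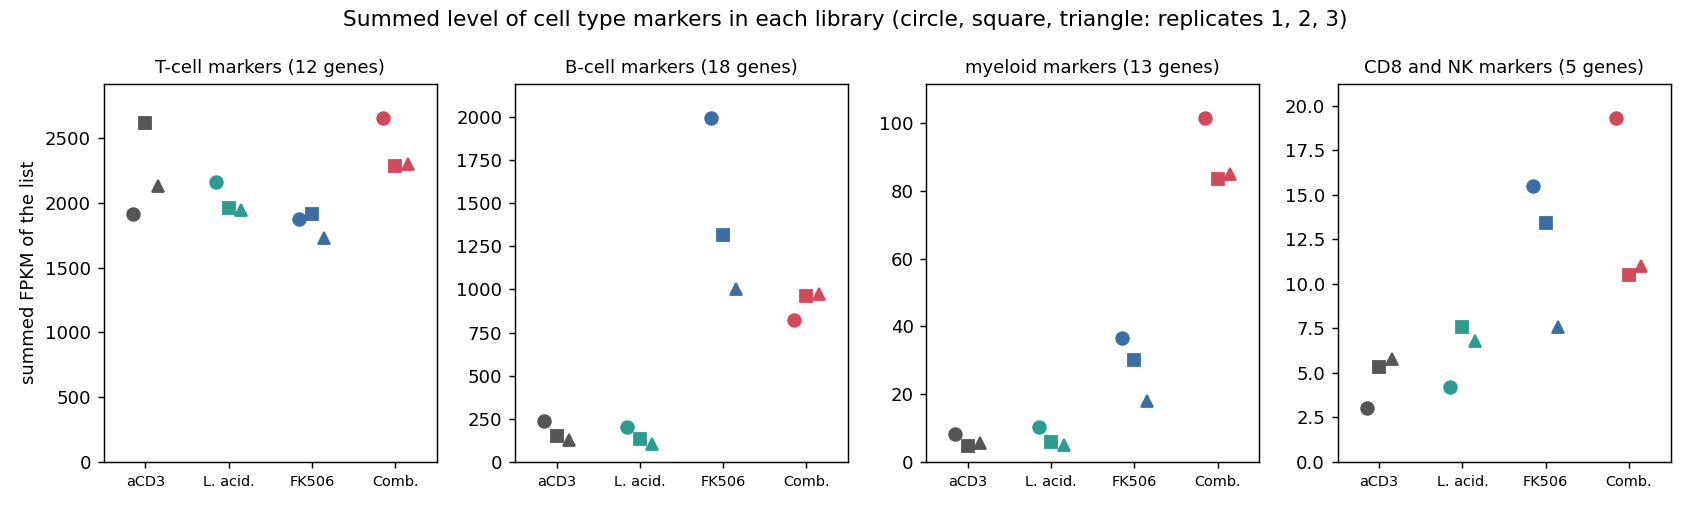
Summed FPKM of the marker genes of T cells, B cells, myeloid cells and CD8 or NK cells (y axes, linear, from 0) in each of the 12 libraries, by group (x axes). The B-cell and myeloid sums of all FK506 and combination libraries lie above those of all anti-CD3 and *L. acidophilus* libraries, while the T-cell sums of the anti-CD3 libraries range from 1917 to 2619, those with FK506 are the lowest and those with the combination start at 2288.

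The 10 genes spanned a wide range of levels. *Dusp2* was the most abundant with anti-CD3 alone (84.9 ± 4.26 FPKM, SD, n = 3), followed by *Dusp4*, *Dusp5* and *Dusp6*, whereas *Spry2* lay at 0.665 ± 0.112 FPKM (SD, n = 3), with 110 to 112 counts per library. The combination treatment raised 4 of the 10 genes against anti-CD3 alone (*Dusp1*, *Dusp5*, *Dusp10* and *Dusp14*) and lowered none, in edgeR's quasi-likelihood test at a Benjamini-Hochberg adjusted p under 0.05. Of all genes tested in this comparison, 21.5% were called higher and 21.8% lower, and of the 12221 genes with a mean of at least 1 FPKM, 24.6% and 34.4%. Against *L. acidophilus*, the combination raised 4 genes (*Dusp1*, *Dusp4*, *Dusp5* and *Dusp14*) and lowered none, where 16.6% of all genes were called higher and 17.0% lower (21.0% and 27.6% of those with a mean of at least 1 FPKM). Against FK506 it raised *Dusp1* and *Dusp14*, with 8.18% of all genes called higher and 10.9% lower (10.6% and 18.8% of those with a mean of at least 1 FPKM). FK506 alone raised 1 gene against anti-CD3, *Dusp10* (all genes: 10.2% higher, 8.81% lower; with a mean of at least 1 FPKM: 13.3% and 13.5%). Between the single treatments, FK506 gave more *Dusp5* and less *Spry1* than *L. acidophilus* (all genes: 4.80% higher, 2.72% lower with FK506). *L. acidophilus* alone changed 0 of the 10 against anti-CD3 by edgeR and 0 by DESeq2 and limma without pairing, with 2 at an unadjusted p under 0.05 in edgeR (all genes: 0.178% higher, 0.0509% lower). In the paired edgeR fit, with the replicate number as a block, 1 gene was called there, *Spry1*. The comparisons share libraries, so they are not independent of each other.

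The median log2 fold change of the 10 genes was 0.42 in the combination against anti-CD3, beside 0.023 over all genes tested and -0.12 over those 12221 genes. For FK506 and *L. acidophilus* against anti-CD3 the medians of the 10 genes were 0.16 and 0.060. Ordered by their mean FPKM, the 4 groups of each gene gave 30 pairs of neighbours, and 28 of these did not pass edgeR's test. The 2 that did were the steps from FK506 to the combination for *Dusp1* and *Dusp14*. In this order, neighbours differ less in mean than groups further apart, so a low count of calls follows partly from the ordering. The same count was not made over all genes.

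**Figure D2:**
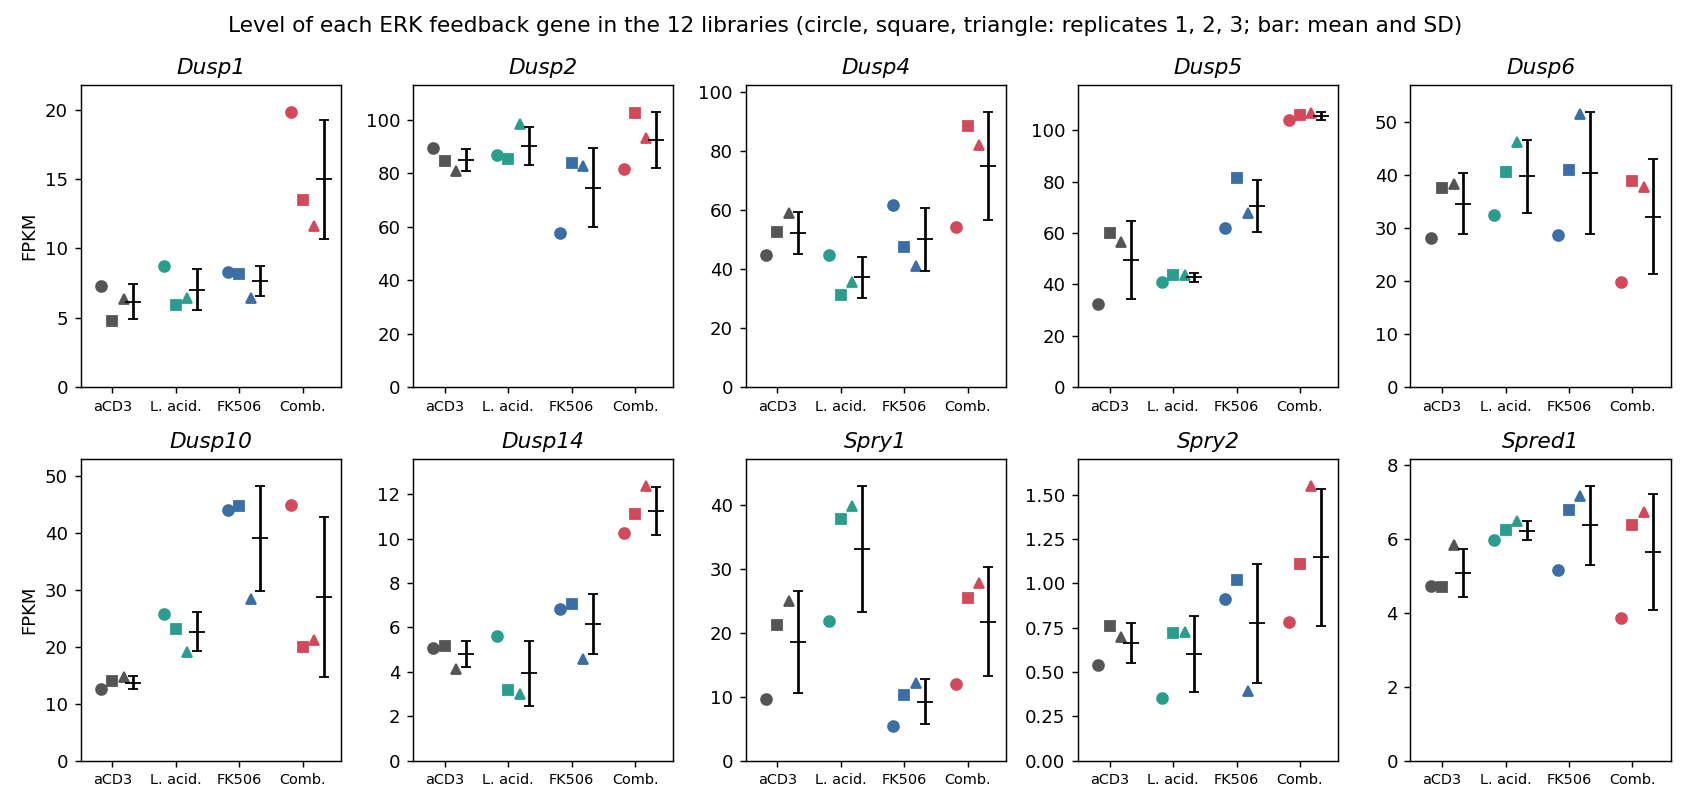
FPKM (y axes, linear, from 0) of each of the 10 genes in the 3 libraries of each group (x axes), with the mean and SD beside the points. The combination libraries of *Dusp1*, *Dusp5* and *Dusp14* lie above every other library, and those of *Dusp10* above the anti-CD3 libraries only.

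**Figure D3:**
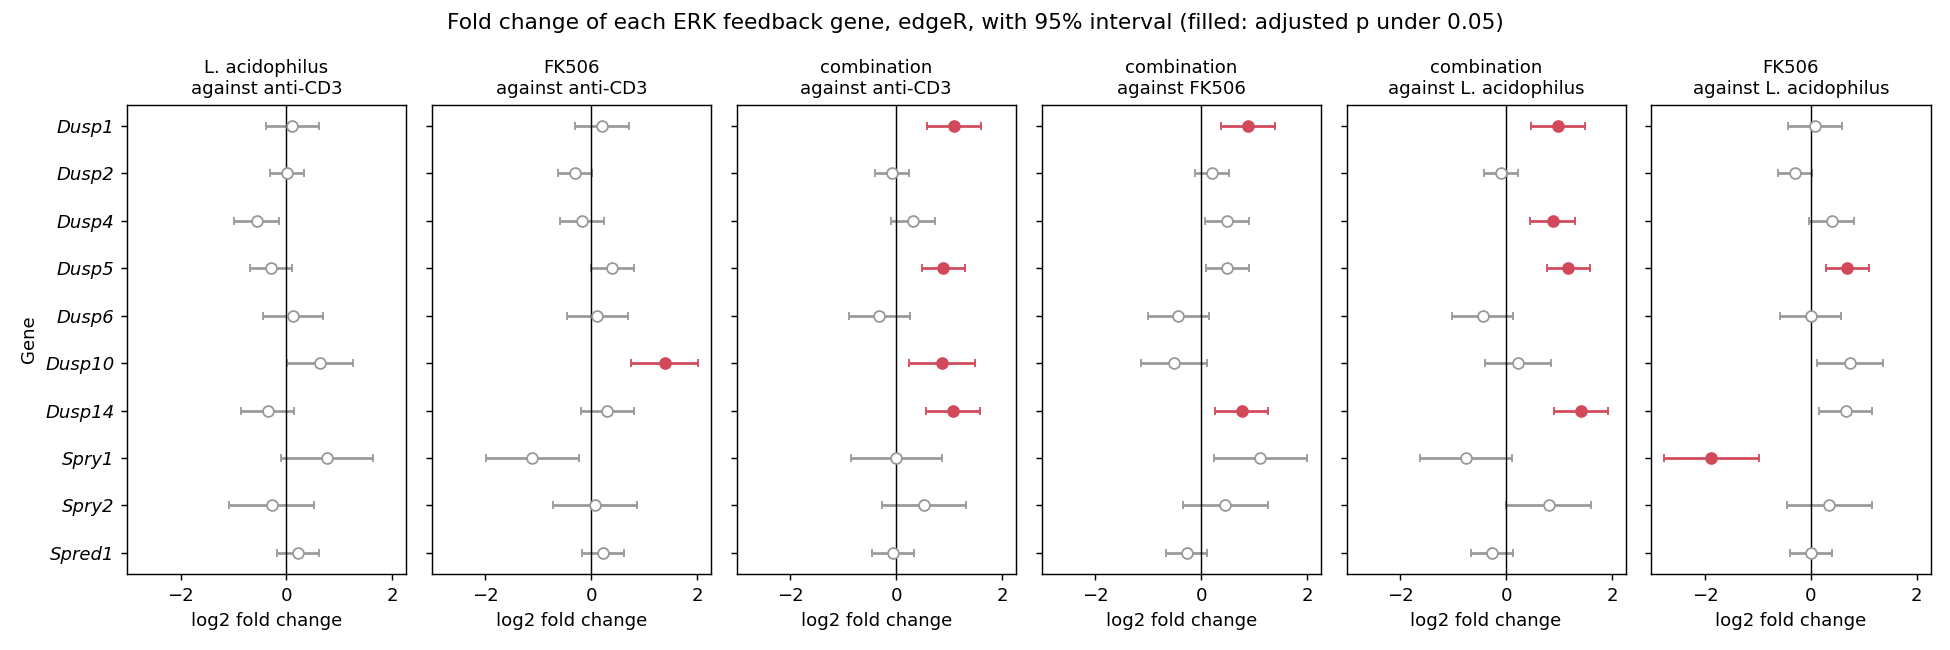
Log2 fold change (x axes) with its 95% interval for each of the 10 genes (y axis) in the 6 comparisons of groups, from edgeR; filled points passed an adjusted p of 0.05. The filled points on the right of 0 are mainly *Dusp1*, *Dusp5*, *Dusp10* and *Dusp14*, and the only one on the left is *Spry1* in FK506 against *L. acidophilus*.

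*Dusp1* (gene ID 19252, chr17:26505591-26508472 in GRCm38.p6) encodes a nuclear phosphatase that acts on p38, JNK and ERK and is a classical immediate early gene. Its FPKM was 7.27, 4.79 and 6.37 in the anti-CD3 libraries 1 to 3, 8.72, 5.94 and 6.41 with *L. acidophilus*, 8.33, 8.16 and 6.40 with FK506, and 19.8, 13.5 and 11.6 with the combination. All 3 combination libraries were above all 9 others, which overlapped among themselves. Log2 fold changes in combination libraries were 1.09 relative to anti-CD3 (SE 0.23, adjusted p = 0.00279, edgeR), 0.97 against *L. acidophilus* (adjusted p = 0.00715) and 0.89 against FK506 (adjusted p = 0.0202). The first 2 of these calls held in all 12 fits that left out 1 library. The call against FK506 was lost without combination library 1 (log2 fold change 0.61, adjusted p = 0.0738) and without FK506 library 3 (0.79, adjusted p = 0.0864). Library 1 held the highest *Dusp1* level in each of the 4 groups. Neither single treatment moved *Dusp1* past the threshold, with log2 fold changes of 0.11 for *L. acidophilus* and 0.20 for FK506.

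*Dusp5* (gene ID 240672, chr19:53529145-53541809) encodes a nuclear phosphatase specific for ERK. Its FPKM was 32.2, 60.1 and 56.4 with anti-CD3, 40.8, 43.7 and 43.7 with *L. acidophilus*, 61.8, 81.6 and 67.8 with FK506, and 104, 106 and 107 with the combination. The 3 combination libraries lay close together and above all others, and the FK506 libraries lay between them and the overlapping anti-CD3 and *L. acidophilus* libraries. The combination raised *Dusp5* over anti-CD3 by 0.89 on the log2 scale (SE 0.19, adjusted p = 0.00233, edgeR) and by 1.18 against *L. acidophilus* (SE 0.19, adjusted p = 0.000624, edgeR), and both calls held with each library left out. Against FK506 the difference of 0.49 (95% interval 0.091 to 0.90) did not pass (adjusted p = 0.0834, edgeR), although the groups did not overlap. It passed in 4 of 9 other fits, among them DESeq2 (0.53, adjusted p = 0.0326) and edgeR without TMM scaling factors (0.59, adjusted p = 0.0423). FK506 exceeded *L. acidophilus* by 0.68 (adjusted p = 0.0448, edgeR), a call that held in only 2 of the 12 fits with a library left out, where the adjusted p reached 0.182.

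The windows from 250 bases before to 50 bases after the annotated start site of 9 of the 10 genes were searched on both strands for 4 motifs of factors that act downstream of T-cell receptor signaling: the cAMP response element (TGACGTCA), the AP-1 site (TGANTCA), the CArG box bound by serum response factor, and the core of NFAT sites (GGAAA). *Dusp1* and *Dusp5* are shown because, among the 4 genes raised by the combination against anti-CD3, they were the ones whose windows held any of these motifs. Capitals mark the cAMP response element of *Dusp1* and the pair of CArG boxes of *Dusp5*; NFAT cores are left in lower case. Both windows are from RefSeq on GRCm38.p6, written 5′ to 3′ along the gene, *Dusp1* from the minus strand of chr17:26508423-26508722 and *Dusp5* from the plus strand of chr19:53528895-53529194.
Dusp1: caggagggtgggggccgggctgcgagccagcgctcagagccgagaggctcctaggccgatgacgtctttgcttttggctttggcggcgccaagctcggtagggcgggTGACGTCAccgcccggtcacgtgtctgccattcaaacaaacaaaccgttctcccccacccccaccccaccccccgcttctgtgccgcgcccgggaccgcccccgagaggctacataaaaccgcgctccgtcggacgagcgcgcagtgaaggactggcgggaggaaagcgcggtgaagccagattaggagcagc
Dusp5: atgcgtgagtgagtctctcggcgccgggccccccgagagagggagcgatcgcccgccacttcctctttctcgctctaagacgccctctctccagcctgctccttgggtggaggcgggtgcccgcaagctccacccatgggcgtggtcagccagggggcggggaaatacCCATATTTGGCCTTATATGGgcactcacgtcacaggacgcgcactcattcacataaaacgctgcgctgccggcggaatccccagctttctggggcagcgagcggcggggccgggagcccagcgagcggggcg

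With the first transcribed base counted as 0, the cAMP response element of *Dusp1* spans -143 to -136. The CArG boxes of *Dusp5* span -82 to -73 and -72 to -63, so that they lie end to end. Of all 32851 windows of this length, 1.79% held a cAMP response element, 1.63% a CArG box, 7.81% an AP-1 site and 61.3% an NFAT core. Among the 9 windows of the genes studied, 1 held a cAMP response element, 1 a CArG box, 0 an AP-1 site and 5 an NFAT core (*Dusp1*, *Dusp5*, *Dusp6*, *Spry2* and *Spred1*). The windows of *Dusp10* and *Dusp14*, which also rose with the combination, held none of the 4. The *Dusp14* window lies at a start site inside the gene range given for it, whereas the other 8 windows lie at the ends of their genes' ranges. These are matches of letters only, and no binding was measured.

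*Dusp14* (gene ID 56405, chr11:84048033-84069256) encodes a small atypical phosphatase known to restrain T-cell receptor signaling. Its FPKM was 5.08, 5.17 and 4.13 with anti-CD3, 5.60, 3.21 and 3.00 with *L. acidophilus*, 6.84, 7.04 and 4.60 with FK506, and 10.2, 11.1 and 12.4 with the combination. The combination libraries were again above all others. The log2 fold change was 1.07 against anti-CD3 (SE 0.23, adjusted p = 0.00292, edgeR) and 1.42 against *L. acidophilus* (SE 0.23, adjusted p = 0.000762, edgeR), the largest rise among the 10 genes in the 6 comparisons of groups. Both calls held with each library left out. The rise of 0.77 against FK506 (adjusted p = 0.0363, edgeR) was less stable, since it was lost without any 1 of 6 libraries: FK506 1, 2 or 3, or combination 1, 2 or 3 (log2 fold changes of 0.61 to 0.86, adjusted p up to 0.146).

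*Dusp10* (gene ID 63953, chr1:184034381-184075636) encodes a phosphatase with a preference for p38 and JNK. Its FPKM was 12.6, 14.0 and 14.7 with anti-CD3, 25.9, 23.1 and 19.1 with *L. acidophilus*, 44.1, 44.7 and 28.5 with FK506, and 45.01, 19.95 and 21.3 with the combination. Every treated library was thus above every anti-CD3 library. FK506 raised *Dusp10* by 1.39 on the log2 scale (SE 0.29, adjusted p = 0.00664, edgeR), and this call held with each library left out. The combination exceeded anti-CD3 by 0.87 (SE 0.29, adjusted p = 0.0275, edgeR), but this rested on combination library 1: without it the log2 fold change was 0.36 (adjusted p = 0.133, edgeR). The same call was also lost without anti-CD3 library 1, 2 or 3 (adjusted p 0.0730, 0.0571 and 0.0599, edgeR), with log2 fold changes of 0.82, 0.91 and 0.88 that stayed close to that of all libraries. Combination library 1 also had the highest summed T-cell (2655 FPKM), CD8 and NK (19.3 FPKM) and myeloid markers (101 FPKM) of the 12 libraries. Its B-cell sum was the lowest of its group (819.9 FPKM). Of the 19.3 FPKM, *Eomes* gave 13.1, against 5.95 and 6.34 in combination libraries 2 and 3, and *Cd8b1* gave 4.48, against 4.14 in both. The part of other cell types in its *Dusp10* level was not tested. The combination differed from FK506 by -0.52 (adjusted p = 0.233, edgeR), and without combination library 1 by -1.03 (adjusted p = 0.00483, edgeR), a called fall. For *L. acidophilus* against anti-CD3 the log2 fold change of 0.64 did not pass (adjusted p = 0.321, edgeR).

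*Dusp4* (gene ID 319520, chr8:34807610-34819894) and *Dusp2* (gene ID 13537, chr2:127336159-127338377) encode further inducible nuclear phosphatases, the second of them best known from lymphocytes. *Dusp4* had an FPKM of 44.8, 52.4 and 59.0 with anti-CD3, 44.9, 31.2 and 35.4 with *L. acidophilus*, 61.7, 47.3 and 41.0 with FK506, and 54.2, 88.3 and 81.9 with the combination. The combination libraries were all above the *L. acidophilus* libraries but overlapped with the other groups. *Dusp4* was higher in the combination than with *L. acidophilus* by 0.88 on the log2 scale (SE 0.19, adjusted p = 0.00445, edgeR), which held with each library left out. The FPKM of *Dusp2* ranged from 80.9 to 89.4 in anti-CD3 libraries, from 85.4 to 98.5 in *L. acidophilus* libraries, from 57.6 to 83.7 in FK506 libraries and from 81.7 to 102 in combination libraries. It passed the test in none of the 6 comparisons of groups. Its difference between the combination and anti-CD3 was -0.088, with a 95% interval from -0.41 to 0.23 on the log2 scale (0.12 without TMM scaling factors), and it is the gene of the 10 with the narrowest interval there.

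*Dusp6* (gene ID 67603, chr10:99263231-99267489) encodes the cytoplasmic phosphatase specific for ERK, a widely used marker of ERK activity. Its FPKM was 28.1, 37.6 and 38.3 with anti-CD3, 32.5, 40.6 and 46.3 with *L. acidophilus*, 28.7, 41.1 and 51.5 with FK506, and 19.8, 39.0 and 37.9 with the combination. The 4 groups overlapped, and library 1 was the lowest in each of them. Without the replicate block, *Dusp6* did not pass in any of the 6 comparisons of groups. Its difference between the combination and anti-CD3 was -0.32 (95% interval -0.89 to 0.26, adjusted p = 0.354, edgeR). With the block, it was called lower in the combination than with FK506 (-0.44, adjusted p = 0.0428, edgeR) and than with *L. acidophilus* (-0.48, adjusted p = 0.0203, edgeR). Against FK506 and *L. acidophilus* the combination differed by -0.43 (adjusted p = 0.281, edgeR) and -0.44 (adjusted p = 0.226, edgeR), and the ratios within libraries of the same number were 0.690, 0.949 and 0.735 to FK506 and 0.608, 0.961 and 0.818 to *L. acidophilus*.

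*Spry1* (gene ID 24063, chr3:37639947-37644599) encodes a Sprouty protein, an inhibitor of Ras and ERK signaling that is induced in activated T cells. Its FPKM was 9.68, 21.2 and 25.0 with anti-CD3, 21.9, 37.7 and 39.8 with *L. acidophilus*, 5.37, 10.3 and 12.1 with FK506, and 12.0, 25.4 and 27.8 with the combination. In every group, library 1 was well below libraries 2 and 3. FK506 libraries were all below *L. acidophilus* libraries, a log2 fold change of -1.88 (SE 0.41, adjusted p = 0.0159, edgeR), the largest difference of the 10 genes in either direction. That call was lost without *L. acidophilus* library 2 or 3 or FK506 library 1 or 2 (adjusted p 0.0590 to 0.0652, edgeR), with log2 fold changes of -1.95 to -1.60. *Spry1* was the 1 gene of the 10 whose 4 groups fell in the same order in the libraries of each number: FK506, anti-CD3, combination, *L. acidophilus*. Within libraries of the same number, the ratio of FK506 to anti-CD3 was 0.554, 0.488 and 0.486, that of *L. acidophilus* to anti-CD3 was 2.26, 1.78 and 1.59, that of the combination to FK506 was 2.23, 2.46 and 2.29, and that of the combination to *L. acidophilus* was 0.548, 0.674 and 0.698. The last of these comparisons gave -0.76 (adjusted p = 0.166, edgeR). Without the replicate numbers in the fit, the differences of FK506 from anti-CD3 (-1.12, adjusted p = 0.0736, edgeR), of *L. acidophilus* from anti-CD3 (0.76, adjusted p = 0.392) and of the combination from FK506 (1.12, adjusted p = 0.0726) did not pass. DESeq2, also without the numbers, called the first (-1.11, adjusted p = 0.0207) and the last of them (1.16, adjusted p = 0.0149). For *L. acidophilus* against anti-CD3, where same-numbered libraries deviated together, the paired fit with the replicate block gave 0.81 (adjusted p = 0.0269, edgeR). The same fit also called FK506 against anti-CD3 (-1.10, adjusted p = 0.000162, edgeR) and the combination against FK506 (1.12, adjusted p = 0.000355, edgeR). It called the combination against *L. acidophilus* as well (-0.79, adjusted p = 0.000236, edgeR). The combination and anti-CD3 differed by 0.00025 on the log2 scale (95% interval -0.86 to 0.86), or by 0.22 without TMM scaling factors, and the ratios within libraries of the same number were 1.24, 1.20 and 1.11.

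**Figure D4:**
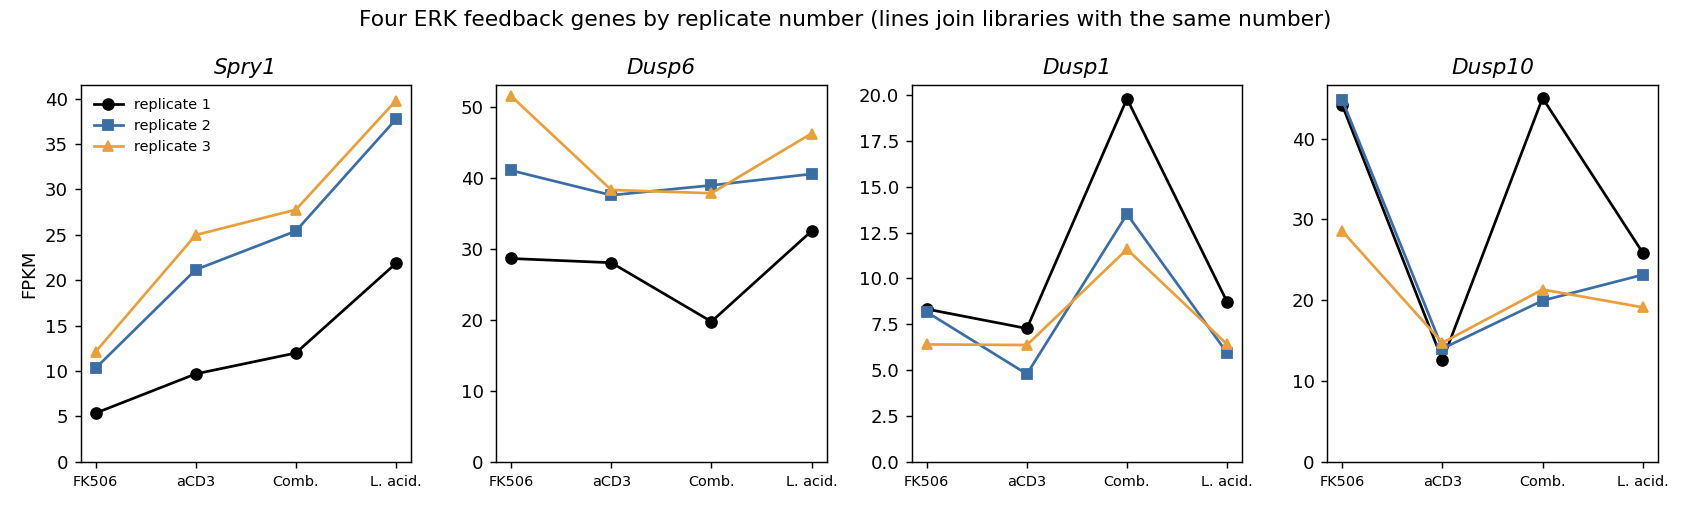
FPKM (y axes, linear, from 0) of *Spry1*, *Dusp6*, *Dusp1* and *Dusp10* in the 4 groups (x axes), with lines joining libraries of the same number, which are not known to share a mouse. The 3 *Spry1* lines put the groups in the same order, replicate 1 is the lowest line for *Spry1* and *Dusp6* and the highest for *Dusp1*, and *Dusp10* in combination library 1 (45.01 FPKM) is above combination libraries 2 and 3.

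*Spry2* (gene ID 24064, chr14:105891947-105896819), a second Sprouty gene, was near the bottom of the range, with 63 to 217 counts per library. Its FPKM ranged from 0.541 to 0.758 in anti-CD3 libraries, from 0.354 to 0.728 in *L. acidophilus* libraries, from 0.394 to 1.02 in FK506 libraries and from 0.784 to 1.55 in combination libraries. The combination libraries were all above the anti-CD3 and *L. acidophilus* libraries, but no comparison passed (for the combination against *L. acidophilus*, 0.81, 95% interval 0.0019 to 1.61, adjusted p = 0.115, edgeR). *Spred1* (gene ID 114715, chr2:117121071-117182279), which brings neurofibromin to the membrane to switch off Ras, lay between 4.70 and 5.83 FPKM in anti-CD3 libraries, 5.96 and 6.47 in *L. acidophilus* libraries, 5.15 and 7.15 in FK506 libraries and 3.85 and 6.73 in combination libraries. It also passed in no comparison, and its largest difference between groups was -0.28 (combination against FK506, 95% interval -0.67 to 0.12).

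Additivity on a log2 scale, meaning that both single effects add up to that of the combination, was tested for each gene. None of the 10 passed (0 at an adjusted p under 0.05 in edgeR, 5 at an unadjusted p under 0.05, 4 with DESeq2 and 0 with limma), where edgeR called 1.35% of all genes above and 3.00% below it. DESeq2 called 2379 of all genes here and edgeR 1025. The departure of *Dusp4* was 1.05 (SE 0.27, adjusted p = 0.0517, edgeR): *L. acidophilus* differed from anti-CD3 by -0.56 and the combination from FK506 by 0.49. This value lay just beyond the threshold, and its adjusted p was 0.00388 with DESeq2 and 0.0423 with edgeR's own filter for low counts. The departure of *Dusp14* was 1.12 (adjusted p = 0.0775 in edgeR). The value of *Dusp10* was -1.16, with an adjusted p = 0.134 from edgeR, and that of *Dusp5* 0.78, with an adjusted p = 0.119. DESeq2 called these 3 as well, at 1.16 (adjusted p = 0.00990), -1.12 (adjusted p = 0.0422) and 0.83 (adjusted p = 0.0302).

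The other genes of the pathway were described by the same test in the combination against anti-CD3. Of all genes, 21.5% were called higher and 21.8% lower, against which the counts of these lists are to be read. Of 6 other MAP kinase phosphatases, 0 rose and 4 fell, the largest fall being that of *Dusp16*, a phosphatase of JNK and p38, from 11.3 ± 1.86 to 4.85 ± 1.21 FPKM (SD, n = 3, log2 fold change -1.41, adjusted p = 6.64e-05, edgeR). Their median log2 fold change was -0.76. Of the 3 other Sprouty and Spred genes tested, *Spred3* fell from 4.81 ± 2.61 to 0.809 ± 0.205 FPKM (SD, n = 3, log2 fold change -2.84, adjusted p = 9.06e-05, edgeR) and the remaining 2 did not pass. Of 21 genes of the Ras and ERK cascade, 5 rose and 5 fell, close to the shares over all genes. *Rasa3*, which encodes a GTPase-activating protein that turns Ras proteins off, rose from 5.03 ± 1.31 to 49.7 ± 10.5 FPKM (SD, n = 3, log2 fold change 3.11, adjusted p = 1.28e-05, edgeR), and *Hras* fell by 1.66 on the log2 scale (adjusted p = 0.000358, edgeR). Of 15 genes of the JNK and p38 cascade, 5 rose and 3 fell, among them the kinase gene *Mapk8* (JNK1), with a rise of 0.74 (adjusted p = 0.000186, edgeR), and the p38 substrate gene *Mapkapk2*, with -1.69 (adjusted p = 2.75e-05, edgeR). Of 17 transcription factor and early response genes known to respond to or relay ERK signaling, 5 rose and 6 fell. *Fosb* rose from 0.248 ± 0.135 to 3.06 ± 1.02 FPKM (SD, n = 3, log2 fold change 3.39, adjusted p = 0.000112, edgeR), and *Ier3* fell from 20.5 ± 6.66 to 4.71 ± 0.514 FPKM (SD, n = 3, log2 fold change -2.33, adjusted p = 3.10e-05, edgeR). The difference between these lists and the 10 feedback genes was not tested.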

How the data were processed

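Groups and replicate numbers came from the sample labels. The authors deposited 1 table of all genes, with counts, FPKM and TPM of every library. The deposited counts are whole numbers without normalization, and may be rounded estimates. The FPKM values were scaled by the authors to transcript length and sequenced fragments. The deposited TPM values (12 columns) were not used. The submitters' processing notes name HISAT2 2.1.0, StringTie 2.1.3b and the build GRCm38 (mm10). The authors' methods name quantile normalization, and whether the deposited FPKM values had undergone it was not tested. Whether strand was used in counting is not given in the sources used here.

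The 10 genes and all lists were chosen with earlier results of these data known. Counts were tested with edgeR 4.0.16 in R 4.3.3 (quasi-likelihood, TMM factors, 12 libraries in 1 fit, genes above 0 in at least 3 libraries), with Benjamini-Hochberg adjustment over all 23585 genes and a threshold of 0.05. Standard errors were derived from each log2 fold change and its F statistic, and intervals are at 95%. On simulated counts for the combination against anti-CD3 over 23359 genes, all 100 genes changed 4-fold and 76 of 100 changed 2-fold were recovered in the right direction, with 7 other genes called. The changed genes had an expected count of at least 100. The spread was set by mean level alone, with no effect of the replicate number, so these rates may not carry over to the deposited counts. Same-numbered libraries deviated together at r over 0.1 in all 3 pairs only for *L. acidophilus* and anti-CD3 (r 0.362, 0.213 and 0.135 across 16953 genes). All 3 were also positive for FK506 and *L. acidophilus* (0.387, 0.0457 and 0.253). The same held for the combination with FK506 (0.25, 0.0502 and 0.141) and with *L. acidophilus* (0.178, 0.104 and 0.0754). FK506 and the combination each had a negative r with anti-CD3 for number 2 (-0.0469 and -0.0468). The blocked fit covered all 12 libraries. All pairs of libraries within a group differed by more than sampling noise, the closest with a chi-square of 4.61 per degree of freedom. Besides the 10 genes, the text names from each pathway list the largest called rise and fall in the combination against anti-CD3 with a mean of at least 1 FPKM. Alternatives were DESeq2 1.42.0, limma 3.58.1 on log2(FPKM + 1) and log2(FPKM + 0.1), no TMM factors, other filters, only the groups compared, the replicate block, a 2-fold threshold, libraries left out in turn, and replicates 2 and 3 alone. Gene and promoter positions are from RefSeq. Figures used matplotlib 3.10.9.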

Additional observations from a re-analysis of the deposited data

How the results depend on the processing

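Of the 10 genes, those called in the combination against *L. acidophilus* numbered 4 in every fit with a library left out (5928 to 8819 of all genes). The calls of *Dusp1*, *Dusp5* and *Dusp14* in the combination against anti-CD3 and of *Dusp10* with FK506 held in all 9 other fits without a fold threshold. With a required 2-fold change, 2 genes were called in the combination against anti-CD3, 2 against *L. acidophilus* and 0 against FK506, and 1 in FK506 against *L. acidophilus*. DESeq2 called 2 genes with FK506 against anti-CD3 (5821 of all genes), 5 in the combination against FK506 (5803 of all genes) and 4 for the departure from additivity (2379 of all genes). For that departure, 1 gene was called with edgeR's own filter (1272 of all genes) and 1 with no filter (998 of all genes). limma called 1 gene in FK506 against *L. acidophilus* with either pseudocount (1593 of all genes with 1 and 1790 with 0.1). Replicates 2 and 3 alone gave 3 genes with FK506 against anti-CD3 (3349 of all genes) and 3 for the departure (462 of all genes). They gave 5 in the combination against FK506 (4023 of all genes), with *Dusp10* lower at -0.94 (adjusted p = 0.0172, edgeR). In the fit with the replicate block, 1 gene was called for *L. acidophilus* against anti-CD3 (101 of all genes). For FK506 against anti-CD3 it called 2 (4886 of all genes), with *Spry1* at -1.10 (adjusted p = 0.000162, edgeR). For the combination against FK506 it called 5 (5216 of all genes), 4 of them higher, with *Dusp6* lower at -0.44 (adjusted p = 0.0428, edgeR). Against *L. acidophilus* it called 6 (8420 of all genes), 4 of them higher. The 2 lower ones there were *Dusp6* at -0.48 (adjusted p = 0.0203, edgeR) and *Spry1* at -0.79 (adjusted p = 0.000236, edgeR). For the departure, 1 was called (1578 of all genes). The labels give same-numbered libraries only a number in common. Over all 6 comparisons of groups, 12 of 18 pairs had r over 0.1, and 9 of 12 libraries correlated best with their own number. Library 1 was the deepest in every group. It was the lowest in all 4 groups for *Dusp5*, *Dusp6* and *Spry1* and the highest in all 4 for *Dusp1*, and neither held for the remaining genes. With a library left out, 1 to 2 genes were called for FK506 against anti-CD3 and 3 to 4 for the combination against anti-CD3 (8483 to 10159 of all genes). In these fits 0 to 4 were called for the combination against FK506, 0 to 2 for FK506 against *L. acidophilus* and 0 to 2 for the departure. Signs turned only in differences that were not called. In the combination against anti-CD3, *Dusp2* and *Spred1* were 0.12 and 0.15 without TMM factors, 0.12 and 0.10 in limma with a pseudocount of 1, 0.12 and 0.12 with 0.1, and 0.028 and 0.10 in replicates 2 and 3 alone, where *Spry1* was -0.025. Against *L. acidophilus*, *Dusp2* was 0.041 without TMM factors and 0.0299 and 0.0302 in limma, and *Dusp10* was -0.18 in replicates 2 and 3 alone. In FK506 against *L. acidophilus*, *Dusp6* was 0.0077 with DESeq2, 0.027 without TMM factors and 0.071 in replicates 2 and 3 alone, *Spry2* was -0.0095 there, and *Spred1* was -0.014 with the replicate block. *Spry2* was -0.12 for FK506 against anti-CD3 in replicates 2 and 3 alone, and *Dusp2* was -0.0018 for *L. acidophilus* against anti-CD3 with DESeq2. With a library left out, the ranges that crossed 0 were, for *L. acidophilus* against anti-CD3, -0.071 to 0.28 (*Dusp1*), -0.063 to 0.0598 (*Dusp2*) and -0.00047 to 0.25 (*Dusp6*), for FK506 against anti-CD3, -0.084 to 0.32 (*Dusp6*) and -0.14 to 0.38 (*Spry2*), for the combination against anti-CD3, -0.30 to 0.27 (*Spry1*) and -0.18 to 0.14 (*Spred1*), for the combination against *L. acidophilus*, -0.29 to 0.44 (*Dusp10*), and for FK506 against *L. acidophilus*, -0.024 to 0.27 (*Dusp1*), -0.22 to 0.20 (*Dusp6*) and -0.081 to 0.14 (*Spred1*). Without TMM factors the log2 fold changes of all genes moved by a median of 0.21 in the combination against anti-CD3, 0.13 against *L. acidophilus* and 0.11 for FK506 against anti-CD3. Over all genes, 54 were called for *L. acidophilus* against anti-CD3, but 1121 with DESeq2, 126 and 115 with the other filters, 86 and 94 with limma, 101 with the block, 3 in replicates 2 and 3, 0 with only the libraries compared and 1 to 383 with a library left out. The departure count of 1025 became 2379 with DESeq2, 1675 in limma with a pseudocount of 1, 1578 with the block, 462 in replicates 2 and 3 and 331 to 1455 with a library left out, and FK506 against *L. acidophilus* went from 1774 to 2894 with DESeq2 and 808 to 2195 with a library left out. FK506 against anti-CD3 went from 4483 to 2725 with only the libraries compared and to 2482 to 4719 with a library left out, and the combination against FK506 from 4508 to 2332 to 5499. With a 2-fold threshold the counts were 2491 and 5797 for FK506 and the combination against anti-CD3, 1754 and 3910 for the combination against FK506 and *L. acidophilus* (7930 without it, and 10209 against anti-CD3), and 1176 for FK506 against *L. acidophilus*. The causes were not tested. *Spry2* had the lowest counts of the 10 genes, 63 to 217 per library.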
